A study of Mus musculus with 15 samples.

Results

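Chemokine receptors of leukocytes were followed in whole blood of mice given ABBV-075 (mivebresib), a small molecule that blocks the bromodomains of the BET proteins, which bind acetylated histones and promote transcription. The set holds 8 genes, Ccr1, Ccr2, Cxcr2 and Cx3cr1 (called myeloid receptors here), Ccr7, Cxcr3 and Cxcr5 (lymphoid receptors) and Cxcr4, which most leukocytes carry. Every probe set annotated with 1 of these symbols alone was taken, which gave 13 of the 45101 probe sets in the table and 8 of 18193 named genes. A probe set is a group of short DNA probes on the array that together read 1 transcript. Of the 13, 11 were bright enough to be tested, and 1 probe set each of Ccr2 (1421187_at) and Cx3cr1 (1450019_at) was too dim.

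The study sought blood markers that respond to the compound. Its 15 mice formed 3 groups of 5, dosed with vehicle or with 1 mg/kg or 5 mg/kg of the compound, with blood taken at 6 h and total RNA of each mouse run on 1 Affymetrix array. The sources used here do not give strain, sex, age or route of dosing. The mice carry no disease model or engineered allele that the labels name, so the groups differ by label in dose alone.

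Chemokines are small secreted proteins that guide leukocytes, and their receptors are G protein-coupled receptors that signal through Gi proteins to the cytoskeleton and to integrins. Which receptors a blood cell carries sets where it goes. Ccr2 draws classical monocytes out of the bone marrow, Ccr7 brings naive T cells into lymph nodes, Cxcr5 brings B cells into follicles, and Cxcr4 holds cells in the marrow.

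The deposited intensities had not been scaled between arrays (medians of 3.61 to 25.4) and were quantile normalised here. Anything below 16 was raised to that floor, which is 4 on the log2 scale and means too dim to be measured. Differences are in log2 units, tested with limma over 24273 probe sets, and a probe set is called where its Benjamini-Hochberg adjusted p lies under 0.05. The control signal of 18S ribosomal RNA differed with dose, and values from a fit with it as a covariate are given beside the receptor differences and list medians at 5 mg/kg that it moved by over 1.5 times or whose call it ended. Its log2 mean was 11.19 ± 0.94 on vehicle, 9.97 ± 0.43 on 1 mg/kg and 9.42 ± 0.42 on 5 mg/kg arrays (SD, n = 5 each), and all 5 mg/kg arrays (8.83 to 9.88) lay below all vehicle arrays (10.24 to 12.31). As a check of the tissue, the markers with a probe set that were bright enough to be tested were counted. They were all 8 erythroid, 10 platelet, 14 B cell, 13 classical monocyte and 12 nonclassical monocyte markers. Other lists were tested in part: 12 of 13 neutrophil, 11 of 14 T cell and 10 of 12 NK cell markers. For dendritic cells it was 7 of 11, and for eosinophils and basophils 3 of 11.

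At 5 mg/kg the myeloid receptors Ccr2 and Ccr1 fell, by 6.13-fold and 4.28-fold at the probe sets that were called. These were 2 of the 11 tested probe sets, both lower, where 0.136% of all tested probe sets were called (0.0906% lower and 0.0453% higher). By class, 2 of 7 myeloid and 0 of 4 lymphoid or broad probe sets were called. With so small a share called among all probe sets, 0 of 4 does not set the lymphoid receptors apart. At an unadjusted p under 0.05 there were 3 of 11, all lower, against 7.96% of all probe sets in either direction and 3.69% lower. The Ccr2 probe set with the highest mean, 1421188_at, was 3.41-fold lower and was not called (limma adjusted p = 0.0893). Both calls ended with 18S as a covariate, at limma adjusted p = 0.282 for Ccr2 and 0.437 for Ccr1. In that fit 0 of 24273 probe sets were called. The Ccr1 call also ended with some single arrays left out. In these bulk samples fewer cells of a type and less RNA per cell cannot be told apart.

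**Figure D1:**
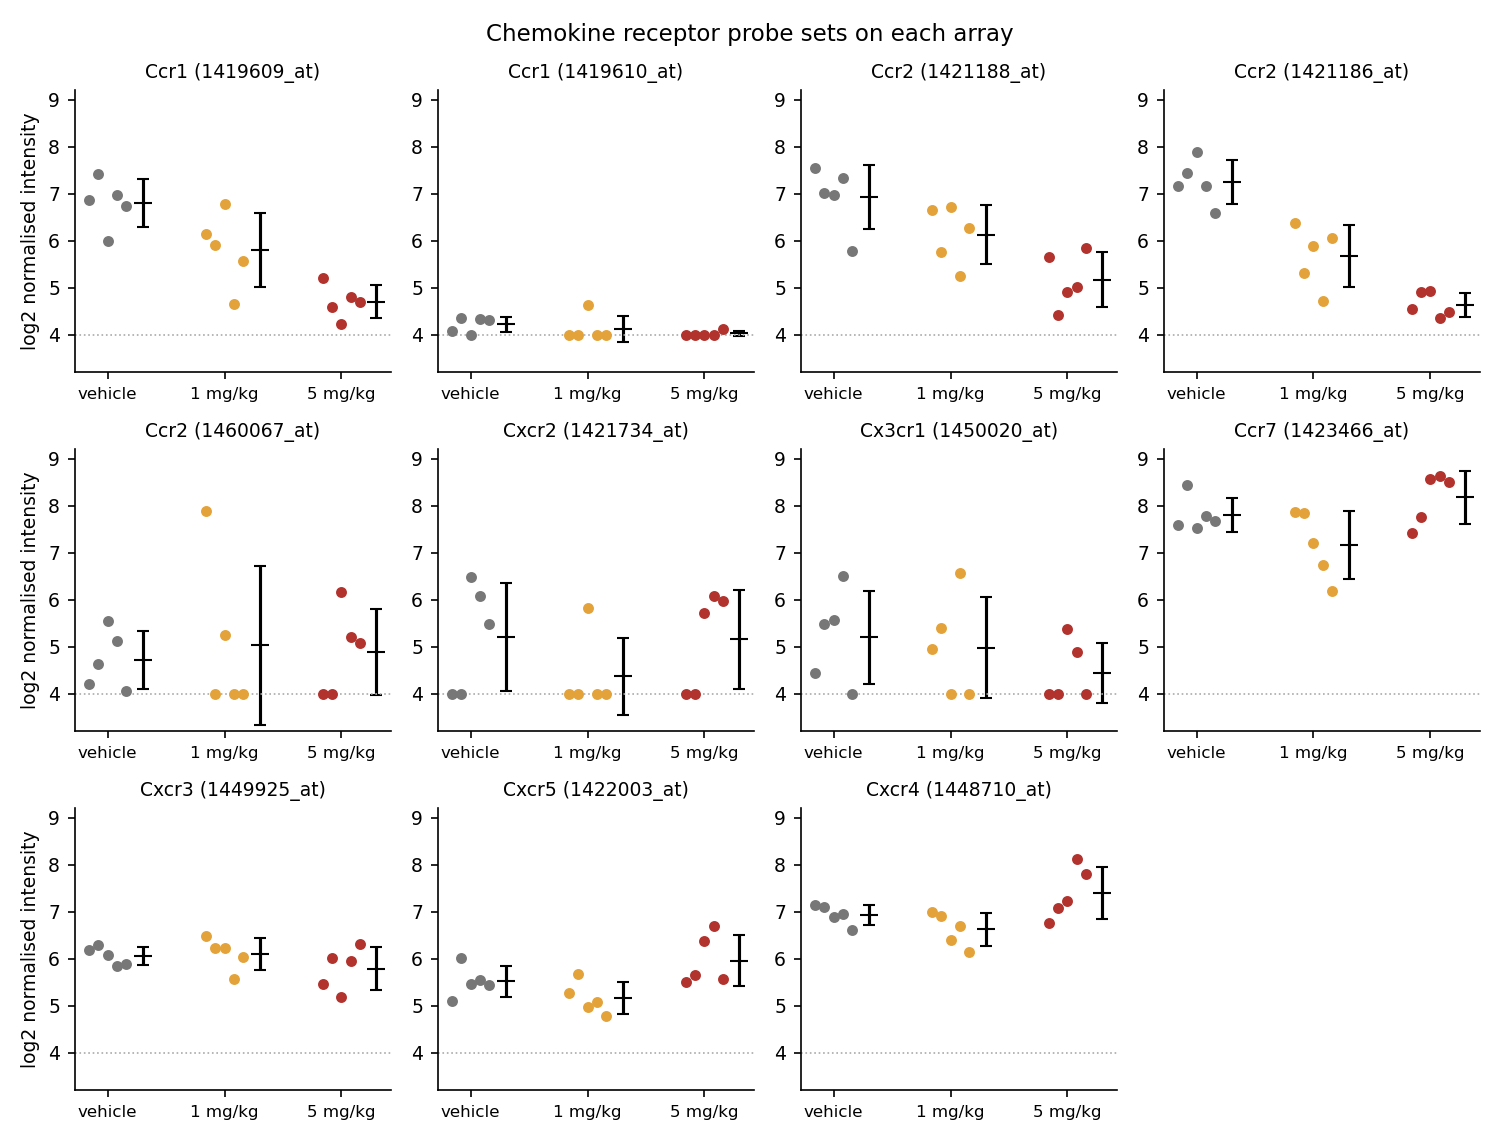
Log2 normalised intensity (y axis) of the 11 tested receptor probe sets on each array, with 1 point per mouse (vehicle grey, 1 mg/kg orange, 5 mg/kg red), the bar giving the group mean and SD (n = 5) and the dotted line the floor at 4. The 5 mg/kg arrays lie below all vehicle arrays at Ccr1 1419609_at and Ccr2 1421186_at, and the groups overlap at the other 9.

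Ccr1 and Ccr2 lie in the same chemokine receptor cluster on chromosome 9, and their promoters are shown because these are the receptors that were called. Each line holds 250 bases before and 50 after the start site on the gene's own strand, from RefSeq (GRCm38.p6), at chr9:123968643-123968942 (minus strand) for Ccr1 and chr9:124101933-124102232 (plus strand) for Ccr2. Capitals mark GAGGAA, the core bound by PU.1, an ETS factor of myeloid cells, and TATAAA, the TATA box, each searched on both strands. The motifs share no overlap in these windows.
Ccr1: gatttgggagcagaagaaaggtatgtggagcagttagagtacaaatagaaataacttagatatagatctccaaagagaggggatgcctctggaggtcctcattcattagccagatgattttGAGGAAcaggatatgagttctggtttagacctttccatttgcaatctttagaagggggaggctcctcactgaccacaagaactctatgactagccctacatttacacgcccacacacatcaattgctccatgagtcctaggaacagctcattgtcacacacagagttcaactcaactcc
Ccr2: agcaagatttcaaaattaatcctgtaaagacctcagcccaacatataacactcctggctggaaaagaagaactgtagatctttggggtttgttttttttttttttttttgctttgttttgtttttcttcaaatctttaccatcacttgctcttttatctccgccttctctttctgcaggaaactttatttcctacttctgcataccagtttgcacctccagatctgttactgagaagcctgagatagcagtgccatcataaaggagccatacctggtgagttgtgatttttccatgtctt
The Ccr1 window held 1 GAGGAA, on the gene's strand, whose first base lies at -129 from the start site, and no TATAAA. The Ccr2 window held neither string. Of 32851 promoters of the same length, 28.3% held GAGGAA and 13.6% held TATAAA. Promoters of 6 of the 8 receptors were in the RefSeq table: Cxcr2 held GAGGAA at 2 places and Cxcr3 at 1, all on the opposite strand, Cxcr4 held TATAAA on both strands close before its start site, and Cx3cr1 held neither.

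Ccr2, the receptor of Ccl2 and Ccl7, marks classical monocytes and was read by 4 probe sets. Probe set 1421186_at had normalised intensities of 144, 175, 235, 144 and 96.8 on the vehicle arrays. It had 82.5, 40.0, 59.1, 26.3 and 66.8 on the 1 mg/kg arrays. It had 23.3, 29.8, 30.3, 20.4 and 22.4 on the 5 mg/kg arrays. Every treated array, at either dose, was lower than the lowest vehicle array, and 1 mg/kg replicate 4 reached into the range of the 5 mg/kg arrays. At 5 mg/kg the difference from vehicle was -2.62 ± 0.30 (SE), 6.13-fold lower (limma adjusted p = 0.00098), and it ranked 4 among all tested probe sets by p. The lower dose gave -1.58 ± 0.30, 3.00-fold lower, and missed the threshold (limma adjusted p = 0.119), although it ranked 13 by p. Of the 11 receptor probe sets 0 were called with limma at 1 mg/kg, where 0.00824% of all tested were, and 3 of 11 had an unadjusted p under 0.05, all lower, where 3.77% were lower. Between the doses, 5 mg/kg lay -1.03 ± 0.30 below 1 mg/kg (limma adjusted p = 0.403), where 0 of 24273 probe sets were called. The mean level thus stood in the order vehicle, 1 mg/kg, 5 mg/kg, at log2 values of 7.25 ± 0.47, 5.67 ± 0.66 and 4.64 ± 0.26 (SD, n = 5 each), with no overlap between the vehicle arrays and either dose and overlap between the doses. The call at 5 mg/kg was kept with any single array left out and was lost once the 18S signal entered the fit as a covariate, at a difference of -2.65 (limma adjusted p = 0.282), a fit in which 0 probe sets in all were called.

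Probe set 1421188_at, with the highest mean of the Ccr2 probe sets over all arrays, had 188, 130, 126, 163 and 55.0 on the vehicle arrays. It had 101, 54.1, 105, 38.0 and 77.5 on the 1 mg/kg arrays and 50.3, 21.3, 29.9, 32.4 and 57.6 on the 5 mg/kg arrays. Vehicle replicate 5 was low and overlapped the highest 5 mg/kg array, and the other vehicle arrays lay above all 5 mg/kg arrays. The difference at 5 mg/kg was -1.77 ± 0.37 (SE), 3.41-fold lower, just short of the threshold (limma adjusted p = 0.0893), and without vehicle replicate 5 it was -2.06 (limma adjusted p = 0.0318). The 1 mg/kg difference was -0.80 ± 0.37 (limma adjusted p = 0.854).

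The remaining Ccr2 probe sets were dim. Probe set 1460067_at had 18.5, 24.9, 46.8, 34.7 and 16.6 on vehicle arrays. Of the 1 mg/kg arrays, replicate 1 stood at 237 and replicate 3 at 38.1 while the other 3 were at the floor, and the 5 mg/kg arrays had 71.8, 37.1 and 33.9 on replicates 3, 4 and 5 and the floor on replicates 1 and 2. The groups overlapped throughout, and the difference at 5 mg/kg was 0.18 ± 0.65 (SE, limma adjusted p = 0.977; -0.69 with 18S as a covariate), with a 95% interval of -1.21 to 1.56. Probe set 1421187_at, untested, was above the floor on 3 vehicle arrays, with a highest value of 33, and at the floor on all treated arrays. The brighter pair of Ccr2 probe sets varied together, at a Pearson correlation of 0.835 over the 15 arrays and 0.501 with group means removed, as a description of arrays that share their groups and their normalisation.

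Ccr1, a receptor of inflammatory chemokines such as Ccl3 and Ccl5 on monocytes and neutrophils, was read by 2 probe sets. The brighter, 1419609_at, had 117, 171, 64.0, 125 and 107 on the vehicle arrays. It had 71.0, 60.1, 110, 25.1 and 47.3 on the 1 mg/kg arrays. It had 36.7, 24.0, 18.6, 28.0 and 26.1 on the 5 mg/kg arrays. All 5 mg/kg arrays were below all vehicle arrays. The 1 mg/kg arrays reached into both groups, replicates 1 and 3 among the vehicle values and replicate 4 among those of 5 mg/kg. At 5 mg/kg the difference from vehicle was -2.10 ± 0.34 (SE), 4.28-fold lower (limma adjusted p = 0.0168), and at 1 mg/kg it was -0.99 ± 0.34 (limma adjusted p = 0.791). The doses differed by -1.11 ± 0.34 (5 mg/kg minus 1 mg/kg, limma adjusted p = 0.415). In log2 means the order was vehicle at 6.80 ± 0.51, 1 mg/kg at 5.81 ± 0.79 and 5 mg/kg at 4.70 ± 0.36 (SD, n = 5 each), with overlap between neighbours. The other probe set, 1419610_at, did not exceed 24.7 on any array and gave -0.19 ± 0.17 at 5 mg/kg (limma adjusted p = 0.851; -0.30 with 18S as a covariate).

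The Ccr1 call stood close to the threshold. Leaving out 1 array ended it for vehicle replicate 1 (-2.08, limma adjusted p = 0.0605), 2 (-1.94, 0.0545), 4 (-2.06, 0.0644) or 5 (-2.11, 0.052) and for 5 mg/kg replicate 2 (-2.07, 0.05), 3 (-1.98, 0.0681) or 5 (-2.10, 0.0593), and the direction held in all of them. The call also ended with no scaling between arrays (-1.81, limma adjusted p = 0.753), with the replicate number as a block (-2.10, 0.0776), with 18S as a covariate (-2.18, 0.437) and without the pair of vehicle arrays highest in 18S (-1.87, 0.146).

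Of the 2 receptor probe sets whose 5 mg/kg and vehicle arrays did not overlap, both were lower, where 1.15% of all tested probe sets were lower without overlap. For 1 mg/kg the single one was Ccr2 1421186_at, where 0.676% were.

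Cxcr2, the neutrophil receptor of Cxcl1 and Cxcl2, was measured on few arrays. Its probe set 1421734_at had 88.9, 67.9 and 44.6 on vehicle replicates 3, 4 and 5 and the floor on replicates 1 and 2. It had 57.0 on 1 mg/kg replicate 3 and the floor on the other 4. At 5 mg/kg it had 52.3, 67.5 and 63.1 on replicates 3, 4 and 5 and the floor on replicates 1 and 2. The vehicle and 5 mg/kg groups were thus much alike in range, and the difference was -0.05 ± 0.58 (SE, limma adjusted p = 0.992), with a 95% interval of -1.28 to 1.17 that leaves room for a more than 2-fold change either way. With 18S as a covariate the difference was -1.92 ± 0.73 (SE, limma adjusted p = 0.533). Without that covariate the differences were -0.84 ± 0.58 for 1 mg/kg against vehicle (-2.12 with it) and 0.79 ± 0.58 for 5 mg/kg against 1 mg/kg.

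Cx3cr1, the fractalkine receptor that is highest on nonclassical monocytes, was also dim. Probe set 1450020_at had 21.7, 44.5, 47.5 and 91.4 on vehicle replicates 1 to 4 and the floor on replicate 5. It had 30.9, 42.0 and 94.5 on 1 mg/kg replicates 1, 2 and 4 and 41.3 and 29.4 on 5 mg/kg replicates 3 and 4, with the other arrays at the floor. It was above the floor on 4 vehicle, 3 of the 1 mg/kg and 2 of the 5 mg/kg arrays, and the groups overlapped. The difference at 5 mg/kg was -0.75 ± 0.52 (SE, limma adjusted p = 0.797) and at 1 mg/kg -0.22 ± 0.52 (limma adjusted p = 0.971). Probe set 1450019_at was at the floor except on vehicle replicate 4 (18.9) and 1 mg/kg replicate 1 (23.5).

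**Figure D2:**
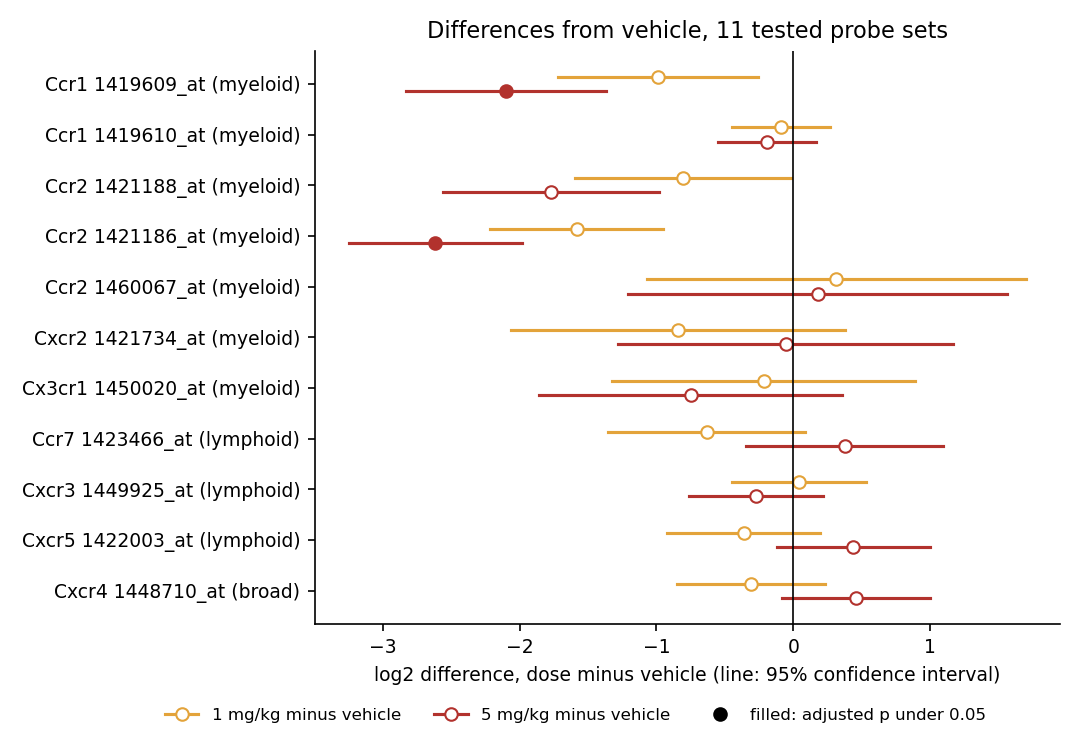
Log2 difference from vehicle (x axis) of the 11 tested probe sets at 1 mg/kg (orange) and 5 mg/kg (red), the line giving the 95% confidence interval from limma and a filled point an adjusted p under 0.05. Ccr1 1419609_at (-2.10) and Ccr2 1421186_at (-2.62) are filled at 5 mg/kg, and Ccr7, Cxcr5 and Cxcr4 lie below 0 at 1 mg/kg and above 0 at 5 mg/kg.

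The lymphoid receptors showed no called difference and, for Ccr7 and Cxcr5, were lowest at the lower dose. Ccr7, the lymph node homing receptor, had 192, 348, 185, 221 and 204 on the vehicle arrays. It had 233, 232, 148, 107 and 72.9 on the 1 mg/kg arrays and 171, 217, 380, 398 and 365 on the 5 mg/kg arrays. Replicates 3, 4 and 5 at 5 mg/kg exceeded every vehicle array and every 1 mg/kg array, while replicate 2 lay among the vehicle arrays and replicate 1 below them, so the groups overlapped. The difference was 0.37 ± 0.34 (SE) for 5 mg/kg against vehicle (limma adjusted p = 0.861; 0.19 with 18S as a covariate), -0.63 ± 0.34 for 1 mg/kg against vehicle (limma adjusted p = 0.875) and 1.01 ± 0.34 for 5 mg/kg against 1 mg/kg (limma adjusted p = 0.451).

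Cxcr5, the follicle homing receptor of B cells, had 34.4, 65.2, 43.9, 46.7 and 43.7 on vehicle arrays. It had 38.4, 51.2, 31.3, 33.8 and 27.5 at 1 mg/kg and 45.1, 50.1, 82.9, 103 and 47.4 at 5 mg/kg. Replicates 3 and 4 at 5 mg/kg were the highest of all 15 arrays and the other 3 lay within the vehicle range. The differences were 0.44 ± 0.26 (SE) for 5 mg/kg against vehicle (limma adjusted p = 0.748; 0.21 with 18S as a covariate), -0.36 ± 0.26 for 1 mg/kg against vehicle (limma adjusted p = 0.905) and 0.80 ± 0.26 for 5 mg/kg against 1 mg/kg (limma adjusted p = 0.447).

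Cxcr3, the receptor of Cxcl9 and Cxcl10 on activated T cells and NK cells, showed no ordered course with dose. It had 73.0, 78.8, 67.9, 57.7 and 59.2 on vehicle arrays, 89.2, 74.8, 74.6, 47.4 and 65.6 at 1 mg/kg and 44.1, 65.1, 36.4, 61.7 and 80.0 at 5 mg/kg. The groups overlapped, and the difference at 5 mg/kg was -0.27 ± 0.23 (SE, limma adjusted p = 0.844), with a 95% interval of -0.76 to 0.22. Unlike Ccr7 and Cxcr5 it had a positive difference at 1 mg/kg, 0.04 ± 0.23, and a negative one between the doses, -0.32 ± 0.23 for 5 mg/kg against 1 mg/kg.

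Cxcr4, the receptor of Cxcl12 on most leukocytes, followed the course of Ccr7 and Cxcr5. It had 142, 136, 119, 124 and 97.5 on the vehicle arrays. It had 127, 120, 84.4, 103 and 71.1 on the 1 mg/kg arrays and 108, 135, 150, 278 and 223 on the 5 mg/kg arrays. Replicates 3, 4 and 5 at 5 mg/kg stood above every other array, and replicates 1 and 2 among the vehicle arrays. The differences were 0.46 ± 0.26 (SE) for 5 mg/kg against vehicle (limma adjusted p = 0.718), -0.31 ± 0.26 for 1 mg/kg against vehicle (limma adjusted p = 0.919) and 0.77 ± 0.26 for 5 mg/kg against 1 mg/kg (limma adjusted p = 0.45).

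Between the doses, then, 3 myeloid probe sets were lower and 3 others higher at an unadjusted p under 0.05, where 2.47% of all tested probe sets were lower and 6.19% higher. None was called with limma, as for all 24273 probe sets. The lower ones were Ccr1 1419609_at, Ccr2 1421186_at and Ccr2 1421188_at, and the higher ones were those of Ccr7, Cxcr5 and Cxcr4.

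Both receptor classes were summed up per array as the mean log2 difference of their genes from the vehicle mean, with the brightest probe set of each gene. The myeloid measure was -1.32, -1.79, -0.99, -0.84 and -0.90 on the 5 mg/kg arrays, against -0.32, -0.06, 0.22, 0.69 and -0.53 on the vehicle arrays. Every 5 mg/kg array was lower than every vehicle array. The lymphoid measure was -0.34, 0.02, 0.25, 0.63 and 0.34 on the 5 mg/kg arrays, against -0.17, 0.46, -0.10, -0.07 and -0.13 on the vehicle arrays, and the groups overlapped. Myeloid minus lymphoid averaged -1.35 ± 0.31 on 5 mg/kg arrays (SD, n = 5), with a range of -1.80 to -0.99, against -0.52 to 0.76 on vehicle arrays. On 1 mg/kg arrays it averaged -0.40 ± 0.40 with a range of -0.90 to 0.12, which overlapped the vehicle range and not that of 5 mg/kg. These measures were built from chosen members and carry no test.

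**Figure D3:**
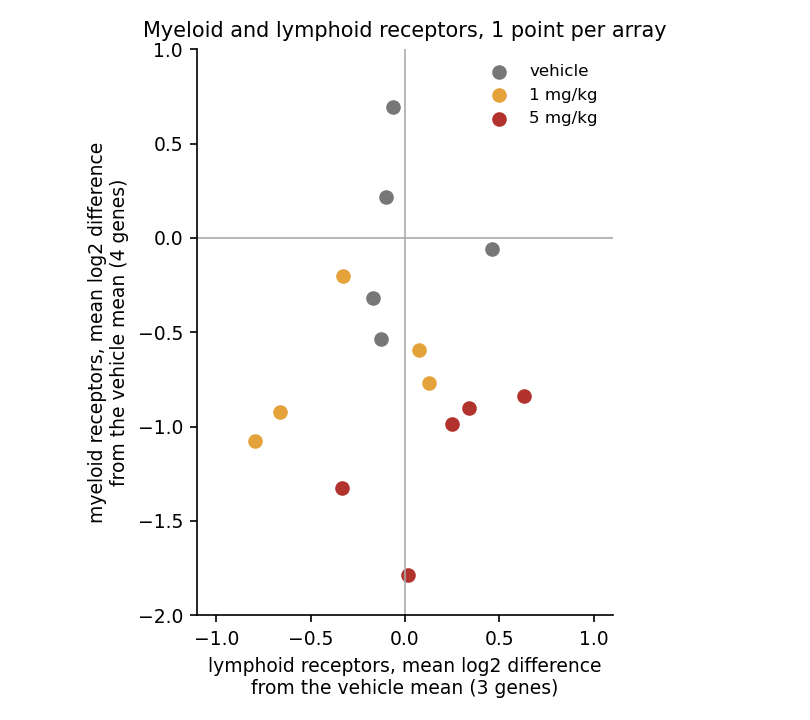
Mean log2 difference from the vehicle mean of the 4 myeloid receptors (y axis) against that of the 3 lymphoid receptors (x axis), 1 point per array (vehicle grey, 1 mg/kg orange, 5 mg/kg red). The 5 mg/kg arrays lie at -1.79 to -0.84 on the myeloid axis, below all vehicle arrays, and spread from -0.34 to 0.63 on the lymphoid axis.

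By gene, all 4 myeloid receptors had a difference below 0 at 5 mg/kg, with a median of -1.26, and 1 of 3 lymphoid receptors did, with a median of 0.37. Of these 4, Cxcr2 lay close to 0, at -0.05 ± 0.58 (SE). It ran from -0.36 to 0.26 with 1 array left out and was -1.92 with 18S as a covariate. Neither Cxcr2 nor Cx3cr1 was called. Of all 12499 genes tested, 53.4% lay below 0, with a median of -0.03. For 1 mg/kg the medians were -0.82 for the myeloid and -0.36 for the lymphoid receptors, with 4 of 4 and 2 of 3 below 0, against 53% of all genes. At 5 mg/kg the myeloid median lies between Ccr2 (1421188_at, -1.77) and the dim Cx3cr1 (-0.75), and at 1 mg/kg between the dim Cxcr2 (-0.84) and Ccr2 (-0.80).

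Some of the receptors varied together over the 15 arrays. Ccr1 and Ccr2 (1421188_at) correlated at 0.843, and at 0.531 with group means removed. With the called Ccr2 probe set, 1421186_at, Ccr1 correlated at 0.830, and at only 0.240 with group means removed. Ccr7 correlated at 0.843 with Cxcr5 and at 0.835 with Cxcr4, and at 0.746 and 0.741 with group means removed. Ccr1 and Ccr7 correlated at -0.09, and at 0.305 with group means removed. These are descriptions over arrays that share groups and normalisation, over 15 arrays each.

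Among 12498 other genes, those whose log2 values most resembled each receptor's were listed by the same measure. Nearest to Ccr2 were Nfe2 (0.886), Clec4e (0.871), a C-type lectin of myeloid cells, and S100a4 (0.846). With group means removed these were 0.696, 0.642 and 0.793. Nearest to Ccr1 were Tmem106a (0.864), Ccr2 (0.843) and Ptpro (0.842), a receptor tyrosine phosphatase. With group means removed they were 0.786, 0.531 and 0.299, so the likeness to Ptpro lay mostly between the groups. Ptpro itself was called lower at 5 mg/kg, at -1.65 ± 0.22 (SE, limma adjusted p = 0.00416). This call ended with 18S as a covariate, a fit in which 0 of 24273 probe sets were called. Nearest to Ccr7 were Rpsa (0.937), Ms4a4b (0.936) and Rhoh (0.935), and nearest to Cxcr5 were Cd79b (0.915), a subunit of the B cell receptor, Ddx39b (0.903) and Clk2 (0.900). Nearest to Cxcr4 were Zfp329 (0.896), Rps20 (0.887) and Rpl6 (0.886), to Cxcr3 Fzd9 (0.864), Hsf4 (0.826) and Nrap (0.813), to Cxcr2 Lrrc8d (0.863), Actg1 (0.859) and Btbd6 (0.821), and to Cx3cr1 Cops8 (0.836), Adgrl2 (0.824) and Rapgefl1 (0.808).

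The receptor cluster around Ccr1 and Ccr2 was read gene by gene in the order of the RefSeq annotation. Ccr9, a gut homing receptor, had -1.36 ± 0.32 (SE) at 5 mg/kg (limma adjusted p = 0.141), read by a probe set whose _x_at name marks possible reading of related transcripts. Cxcr6, between Ccr9 and Ccr1, had 0.66 ± 0.46, and Fyco1, which lies between Ccr9 and Cxcr6 and is no receptor, had -0.02 ± 0.21. Ccr1l1, next to Ccr1, had -0.14 ± 0.33, and Xcr1 and Ccr3 were too dim to be tested. Ccr1l1, the gene between Ccr1 and Ccr2 that could be tested, was not called (limma adjusted p = 0.968).

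Of 9 other chemokine receptors tested, 0 were called with limma at 5 mg/kg, and 8 lay below 0 with a median of -0.23 (-0.46 with 18S as a covariate, -0.03 with no scaling). After Ccr9, the smallest p was that of Ccr6, a receptor of B cells and some T cells, at -0.89 ± 0.27 (SE, limma adjusted p = 0.307). At both, all 5 mg/kg arrays were below all vehicle arrays, as at 1.15% of all tested probe sets. At an unadjusted p under 0.05 they were the only ones of the 9, where 7.96% of all tested probe sets were. Of all genes 53.4% lay below 0.

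Of 25 chemokine ligands tested, 0 were called with limma at 5 mg/kg and 16 lay below 0, with a median of -0.09 (0.04 with no scaling between arrays, -0.18 with 18S as a covariate). The smallest p were those of Ccl6 at -1.27 ± 0.32 (SE, limma adjusted p = 0.173), with no overlap between the groups, and Ccl9 at -1.49 ± 0.70 (limma adjusted p = 0.619), both of which can act through Ccr1 in mice. They were the only ligands of the 25 with an unadjusted p under 0.05, where 7.96% of all tested probe sets were. Of all genes 53.4% lay below 0, and 1.15% of all tested probe sets were lower without overlap. The Ccr2 ligand Ccl2 was at -0.49 ± 0.28 and the Cxcr4 ligand Cxcl12 at 0.38 ± 0.55.

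Of 10 other chemoattractant receptors tested, 0 were called with limma, and 5 lay on either side of 0 at 5 mg/kg, with a median of -0.06 (-0.13 with 18S as a covariate, 0.04 with no scaling). Fpr2, a formyl peptide receptor, was at -1.34 ± 0.27 (SE, limma adjusted p = 0.0706) and C3ar1, the receptor of complement C3a, at -0.95 ± 0.34 (limma adjusted p = 0.427), both without overlap between 5 mg/kg and vehicle. They were the only ones of the 10 at an unadjusted p under 0.05. Of all tested probe sets 7.96% had such a p, and 1.15% were lower without overlap. C5ar1, the C5a receptor of neutrophils and monocytes, was at 0.08 ± 0.23.

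Of 37 genes of receptor signalling tested (G protein subunits, kinases and arrestins that shut receptors off, and effectors of migration), 0 were called with limma at 5 mg/kg, and 24 lay below 0 with a median of -0.13 (-0.30 with 18S as a covariate). The smallest p were those of Pik3cg, the PI3 kinase downstream of Gi, at -0.56 ± 0.18 (SE, limma adjusted p = 0.317), the arrestin Arrb1 at -0.62 ± 0.21 (0.369), the receptor kinase Grk3 at -0.55 ± 0.22 (0.504) and the tyrosine kinase Ptk2b at -0.59 ± 0.25 (0.548), the only 4 at an unadjusted p under 0.05. Of all tested probe sets 7.96% had an unadjusted p under 0.05 at 5 mg/kg, and 53.4% of all genes lay below 0. At 1 mg/kg 34 of 37 lay below 0, with a median of -0.37, where 53% of all genes did. Between the doses, 29 of 37 lay higher at 5 mg/kg than at 1 mg/kg, where 47.7% of all genes did.

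**Figure D4:**
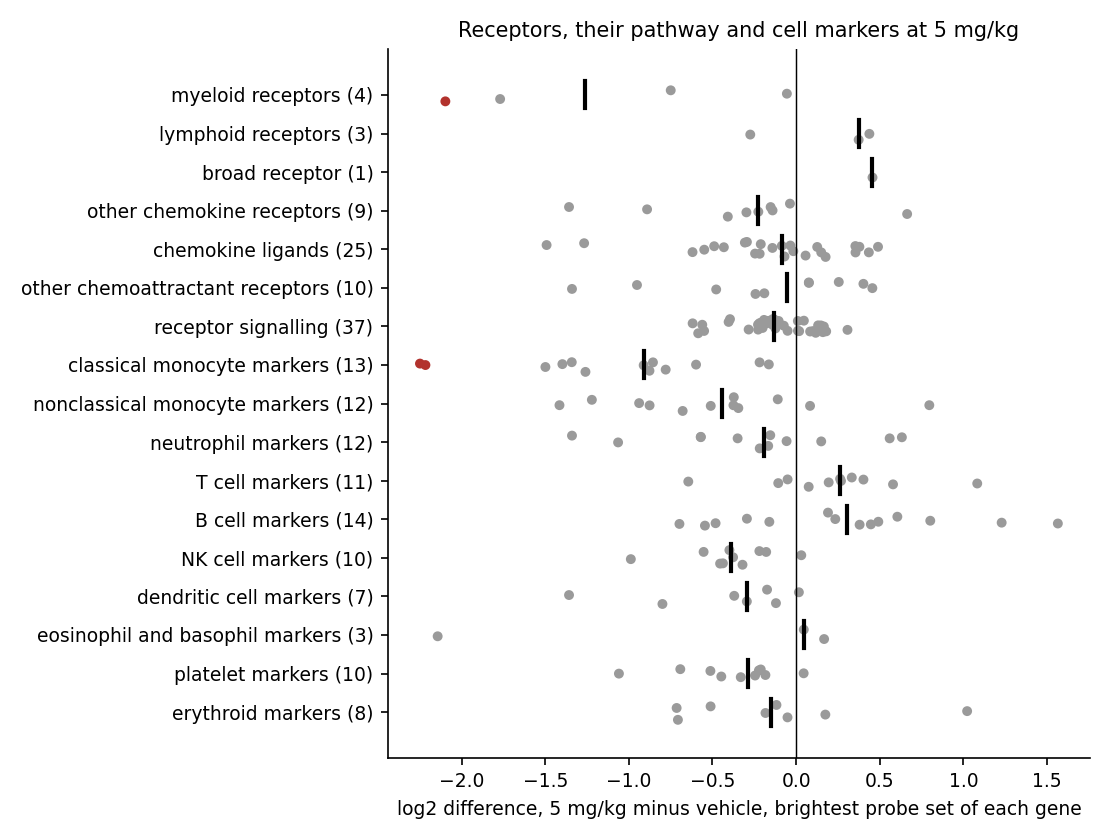
Log2 difference of 5 mg/kg minus vehicle (x axis) for each tested gene, by its brightest probe set, in the receptor classes, the pathway lists and the cell marker lists (number of genes in brackets). Black bars are list medians, red points have a limma adjusted p under 0.05 (Ccr1, Clec4a3 and Mpeg1) and the vertical line is 0.

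Markers of blood cell types are given beside the receptors they are known to share cells with, and their part in the receptor differences was not tested. Of the classical monocyte markers 13 of 16 had a probe set. All 13 lay below 0 at 5 mg/kg, with a median of -0.91, where 53.4% of all genes lay below 0. Clec4a3, a C-type lectin, was at -2.25 ± 0.30 (SE, limma adjusted p = 0.00439) and Mpeg1, a pore-forming protein of phagocytes, at -2.22 ± 0.30 (limma adjusted p = 0.0046), sizes near those of Ccr1 and Ccr2. The summed intensity of the 13 was 6082 to 9103 on vehicle, 4137 to 6922 on 1 mg/kg and 3436 to 4820 on 5 mg/kg arrays, with 0 of them at the floor on all arrays of a group. Next by p were Cd68 at -1.34 ± 0.32 and Ms4a6c at -0.91 ± 0.25 (SE). The list ran from -2.25 to -0.16. At an unadjusted p under 0.05 there were 9 of 13, where 7.96% of all tested probe sets were. The monocyte lineage receptor gene Csf1r was at -0.86 ± 0.40 and Lyz2 at -0.78 ± 0.22 (SE).

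**Figure D5:**
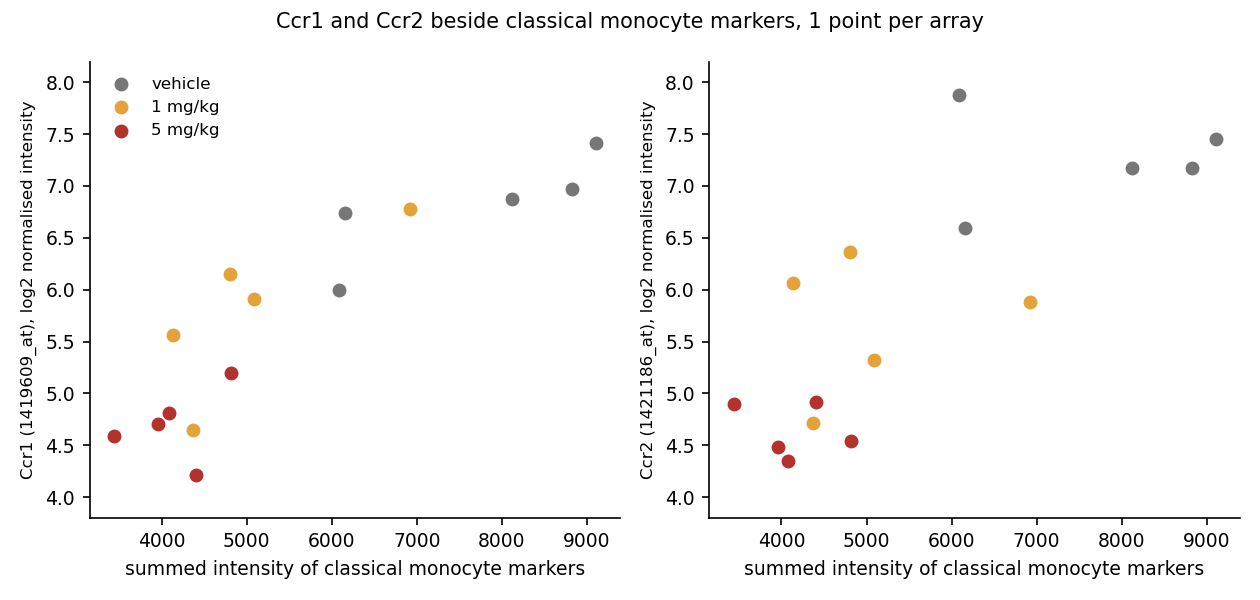
Log2 normalised intensity of Ccr1 (1419609_at, left) and Ccr2 (1421186_at, right) on the y axis against the summed normalised intensity of 13 classical monocyte markers on the x axis, 1 point per array (vehicle grey, 1 mg/kg orange, 5 mg/kg red). The 5 mg/kg arrays combine marker sums of 3436 to 4820 with low receptor values, the vehicle arrays hold sums of 6082 to 9103, and 3 of the 1 mg/kg arrays have sums (4137, 4370 and 4802) within the range of the 5 mg/kg arrays.

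Nonclassical monocyte markers, beside Cx3cr1, lay below 0 for 10 of 12 at 5 mg/kg, with a median of -0.44 (-0.80 with 18S as a covariate) and 0 called. At an unadjusted p under 0.05 there were 6 of 12, of which 5 were lower and Pou2f2 was higher at 0.80 ± 0.26 (SE). Of all tested probe sets 7.96% had such a p, and 53.4% of all genes lay below 0. The 12 summed to 1054 to 1463 on 5 mg/kg arrays, against 1774 to 1882 on vehicle arrays. Neutrophil markers, beside Cxcr2, lay below 0 for 9 of 12 with a median of -0.19 and 0 called. Of the 12, 2 had an unadjusted p under 0.05, against the same shares of all probe sets and genes. The neutrophil median was -0.90 with 18S as a covariate and -0.41 to -0.05 with 1 array left out. Their sums, 1126 to 4159 on 5 mg/kg arrays against 2634 to 3829 on vehicle arrays, overlapped, and Camp was at the floor in both groups. Within the 5 mg/kg group, replicates 1 and 2, on which Cxcr2 was at the floor, had the lowest neutrophil sums, 2134 and 1126. Of the vehicle arrays with Cxcr2 at the floor, replicate 1 had the lowest sum of its group, 2634, and replicate 2 the highest, 3829.

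T cell markers, beside Ccr7 and Cxcr3, lay above 0 for 8 of 11 at 5 mg/kg, with a median of 0.26 and 0 called, and for 10 of 11 between 5 mg/kg and 1 mg/kg, with a median of 0.48, where 47.7% of all genes lay above 0. At an unadjusted p under 0.05 there were 2 of 11 at 5 mg/kg, where 7.96% of all tested probe sets were. These 2 went opposite ways, Cd3g at 1.08 and Il7r at -0.64. T cell sums were 1479 to 2798 on 5 mg/kg arrays, against 1457 to 2205 on vehicle arrays, while Cd4 and Trac were at the floor in every group. B cell markers, beside Cxcr5, lay above 0 for 9 of 14 at 5 mg/kg, with a median of 0.31 (0.46 with 18S as a covariate, 0.15 to 0.58 with 1 array left out) and 0 called, and for 12 of 14 between the doses, with a median of 0.54. At an unadjusted p under 0.05 there were 4 of 14 at 5 mg/kg, where 7.96% of all tested probe sets were, with Spib, Ms4a1 and Cd79a higher and Bank1 lower at -0.54. B cell sums were 3016 to 6513 on 5 mg/kg arrays, against 1901 to 4942 on vehicle arrays, with 0 at the floor throughout a group. Replicates 3, 4 and 5 at 5 mg/kg, high for Ccr7 and Cxcr4, also had the highest T cell sums of that group, 2327, 2268 and 2798, and replicates 3 and 4, high for Cxcr5, the highest B cell sums, 4745 and 6513.

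Of the other lists, NK cell markers lay below 0 for 9 of 10 at 5 mg/kg (median -0.39), dendritic cell markers for 6 of 7 (-0.29), platelet markers for 9 of 10 (-0.29) and erythroid markers for 6 of 8 (-0.15). With 18S as a covariate these medians were -0.99 for NK cell, -0.62 for dendritic cell, -1.04 for platelet and -0.27 for erythroid markers. Of the eosinophil and basophil markers 3 were tested, with Alox15 at -2.14 ± 0.72 (SE, limma adjusted p = 0.369). Their median, 0.05, was -0.34 with 18S as a covariate and ran from -1.05 to 0.18 over the settings tried. None of these lists held a called gene with limma. At an unadjusted p under 0.05 there were 1 of 10 NK cell, 2 of 7 dendritic cell and 1 of 10 platelet markers. There were also 1 of 8 erythroid and 1 of 3 eosinophil and basophil markers. Of all tested probe sets 7.96% had such a p, and 53.4% of all genes lay below 0.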

How the data were processed

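Per the labels' protocols, total RNA was isolated with Qiazol and RNeasy columns and labelled as biotinylated cRNA with an Affymetrix 3' kit. The intensity values deposited by the authors are linear, with negative values, 1 column per array. The software, the summarisation and any normalisation are not given in the sources used here, and the unscaled array medians were read from the values. The 64 control probe sets were left out, the rest were quantile normalised, values under 16 were set to 16 and log2 was taken. Probe sets above 16 on at least 5 of 15 arrays were tested (24273 of 45037), and 52.69% of all values lay at the floor. Gene symbols came from the platform annotation, which can be old: 34945 probe sets had 1 symbol, 932 several and 9160 none.

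Groups from the titles were compared in limma 3.58.1 (R 4.3.3; lmFit and eBayes, two-sided, group means, 12 residual and 3.936 prior degrees of freedom), with Benjamini-Hochberg adjustment over all tested probe sets. The script was tested on simulated data. The 5 mice per group limit the precision, and the p-values measure the spread between mice. No arrays were identical, and array pairs correlated at 0.7033 to 0.9232. The comparisons with vehicle share its arrays. Where a gene is named without a probe set, the brightest was used. Named were all receptors, from each of 14 further lists (244 genes, 214 with a probe set, 176 tested) the called genes and up to 4 of smallest p at 5 mg/kg, and the 3 genes most like each receptor. Ccl2, Cxcl12, C5ar1, Csf1r, Lyz2 and the cluster neighbours were named beyond this rule, with values seen. The receptors, their classes and the lists were chosen with earlier results of these data known. Some genes are shared between lists, so the lists are not independent. Ccr9 is among the other chemokine receptors and the dendritic cell markers, and Fpr2 among the other chemoattractant receptors and the neutrophil markers. Pf4 and Ppbp are among the ligands and the platelet markers. Alternatives were other scalings, floors and filters, array weights, a trend, fewer groups, a replicate block, an 18S covariate and arrays left out. Same-numbered arrays deviated from their group means with correlations of -0.27 to 0.32 between 5 mg/kg and vehicle, 1 of 5 over 0.1. What the numbers stand for is not given, and these correlations cannot exclude a shared order of handling. The log2 18S signal went from 12.31 on vehicle replicate 1 to 10.24 on replicate 5. At 5 mg/kg it went from 9.88 on replicate 1 to 8.83 on replicate 4 and 9.25 on replicate 5. The 1 mg/kg arrays showed no such order.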

Additional observations from a re-analysis of the deposited data

Results flagged for a closer look

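Of 36 sets of 5 arrays, 4 held an array whose gap to the nearest other exceeded the 95% critical value of Dixon's ratio, which chance alone does in about 1 of 20 sets. Ccr7 on vehicle replicate 2 had a log2 intensity of 8.44, against 7.53 to 7.79 on the other vehicle arrays. Cxcr2 on 1 mg/kg replicate 3 had 5.83 while the other 4 arrays of its group were at the floor of 4. The dim Ccr1 probe set 1419610_at had 4.63 on 1 mg/kg replicate 3 and 4.12 on 5 mg/kg replicate 5, with the other 4 arrays of each group at the floor. The last 3 rest on a floor that holds the other arrays at 1 value. Without vehicle replicate 2 the difference of Ccr7 at 5 mg/kg, 0.37 over all arrays, was 0.53 ± 0.35 (SE, limma adjusted p = 0.758).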

How the results depend on the processing

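The count of called receptor probe sets at 5 mg/kg, 2 in the standard setting, was 1 with no scaling between arrays, with the replicate block and without the pair of vehicle arrays highest in 18S (Ccr2 1421186_at in each), 1 with 1 probe set per gene (Ccr1), 0 with the 18S covariate and 1 to 2 with 1 array left out. At 1 mg/kg it was 0, and 1 with a floor of 32 (Ccr2 1421186_at, -1.53, limma adjusted p = 0.0409). Between the doses it was 0 in every setting tried. The brightest Ccr2 probe set was called at 5 mg/kg with array weights (-1.72, limma adjusted p = 0.048). With the replicate block the limma adjusted p at 5 mg/kg was 0.0776 for Ccr1 and 0.00427 for Ccr2 1421186_at, and 1 of 5 arrays correlated best with its own number. Myeloid minus lymphoid at 5 mg/kg ran from -1.61 to -1.15 over the settings. All probe sets called at 5 mg/kg, 33 in the standard setting (66.7% lower), were 4 with no scaling (100% lower, the median of all probe sets shifting to 0.12), 73 with a floor of 32, 95 with array weights, 11 with 1 probe set per gene, 7 without the pair of vehicle arrays highest in 18S and as few as 15 with 1 array left out. The cause of these moves was not tested.

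Of 900 receptor values over all alternatives, 26 changed sign, none of them called. They were Cxcr3 at 1 mg/kg with no scaling (-0.026) and the dim Ccr2 1460067_at: between the doses with no scaling (0.039) and with array weights (0.10), at 5 mg/kg with a floor of 8 (-0.22), with the 18S covariate (-0.69) and without that pair of vehicle arrays (-0.013), and at 1 mg/kg with a floor of 8 (-0.13), array weights (-0.035) and the 18S covariate (-0.28). With 1 array left out the ranges that crossed 0 were those of Ccr2 1460067_at (-0.16 to 0.41 at 5 mg/kg, -0.46 to 0.60 at 1 mg/kg, -0.45 to 0.61 between the doses), Cxcr2 at 5 mg/kg (-0.36 to 0.26), Cx3cr1 at 1 mg/kg (-0.59 to 0.11), Cxcr3 at 1 mg/kg (-0.051 to 0.18) and Ccr1 1419610_at between the doses (-0.14 to 0.027). Signal near the floor limits Cxcr2, Cx3cr1 and the dim probe sets of Ccr1 and Ccr2.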
